A study of Mus musculus with 12 samples.

Results

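Nestin (Nes), vimentin (Vim), desmin (Des), synemin (Synm) and lamin A/C (Lmna) are intermediate filament genes, and all probes that the platform annotation assigns to these 5 symbols are described here, of 19057 genes with a probe. They were chosen by measured values of these arrays: Nes was selected on its intensity in right carotid arteries of fibulin-5 knockout against wild type mice, and Des on its intensity in left against right arteries of wild type mice. For those genes and comparisons the values are therefore given as a description with no test. The genes had 15 probes (Nes 2, Vim 2, Des 1, Synm 4 and Lmna 6), of which 14 passed the filter on dim probes, and 11 exceeded the background guide on at least 6 of the 12 arrays.

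RNA from mouse carotid arteries was measured on 12 one-colour Illumina arrays, 3 in each of 4 groups. The groups were the ligated left common carotid artery (LCA) and the untouched right one (RCA) of fibulin-5 knockout mice (KO, FibVKO in the labels), and the LCA and RCA of wild type mice (WT). All mice were C57Bl/6J per the labels, all underwent partial ligation of the left artery, which disturbs its flow, and arteries were taken 1 day later, so that the RCA is the other artery of an operated animal. The labels give no age, and the series text calls the loss of fibulin-5 both a knockdown and a knockout. The question posed was how loss of fibulin-5, a matrix protein of elastic fibres encoded by Fbln5, bears on stiffening and remodelling under disturbed flow. Whether a group's arrays came from different animals is not stated, so p-values measure only the spread between samples.

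Intermediate filaments are rope-like polymers that give cells mechanical strength. Vimentin is the filament protein of mesenchymal and endothelial cells, desmin that of muscle, and nestin and synemin co-assemble with vimentin or desmin rather than forming filaments alone. Nestin is known as a marker of progenitor cells and is made in some endothelial and smooth muscle cells of vessels, often where cells proliferate. The lamins A and C, both made from Lmna by alternative splicing, form the meshwork under the nuclear envelope.

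Values are linear intensities as deposited, and no probe's level is set against another probe's. As a guide to background, each array's 95th percentile over 1504 probes for olfactory and vomeronasal receptors was used, which lay between 95.7 and 126. Where none of a group's 3 arrays exceeded it, the probe is called at background in that group. The share of genes above it ranged over the arrays from 16% on WT LCA replicate 3 to 48.5% on KO LCA replicate 3, and WT LCA replicate 3 also had the lowest median correlation with the other arrays (0.628, against up to 0.836). The probe for Fbln5 read 80.6 to 97.4 and exceeded the guide on 0 of the 12 arrays, WT included, so it does not check the genotype labels. Among markers of the labelled tissue, 8 of 9 endothelial genes exceeded the guide on all 3 arrays in KO LCA, KO RCA and WT RCA, and 6 of 9 did in WT LCA. Of 8 smooth muscle genes, 5 did so in KO LCA, 3 in KO RCA, 0 in WT LCA and 2 in WT RCA. Cnn1, Tagln and Lmod1 were at background in both WT groups. Cnn1 was at background in KO LCA too, and Lmod1 in KO RCA. Over the 12 arrays Acta2 and Mylk exceeded the guide on 11, Myocd on 10, Smtn on 8 and Myh11 on 7. Tagln exceeded it on 5, and Cnn1 and Lmod1 on 1 each.

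The promoters of Nes, Vim and Lmna are shown because Nes and Lmna had probes above background whose KO arrays lay over the WT arrays without overlap, and Vim is the filament protein that nestin joins. Each window holds 300 bases around a RefSeq start in GRCm38.p6, most of them upstream, on the coding strand, and capitals mark the matches listed after them. The Nes window is chr3:87970843-87971142 on the plus strand, the Vim window chr2:13574061-13574360 on the plus strand, and the Lmna window, 1 of 2 starts in the table, chr3:88503303-88503602 on the minus strand.
Nes: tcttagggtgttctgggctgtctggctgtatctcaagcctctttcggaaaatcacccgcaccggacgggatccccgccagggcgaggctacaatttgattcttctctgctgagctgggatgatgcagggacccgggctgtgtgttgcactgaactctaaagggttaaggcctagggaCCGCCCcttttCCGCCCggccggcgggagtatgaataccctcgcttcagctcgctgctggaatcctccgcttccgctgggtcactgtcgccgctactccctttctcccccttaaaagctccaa
Vim: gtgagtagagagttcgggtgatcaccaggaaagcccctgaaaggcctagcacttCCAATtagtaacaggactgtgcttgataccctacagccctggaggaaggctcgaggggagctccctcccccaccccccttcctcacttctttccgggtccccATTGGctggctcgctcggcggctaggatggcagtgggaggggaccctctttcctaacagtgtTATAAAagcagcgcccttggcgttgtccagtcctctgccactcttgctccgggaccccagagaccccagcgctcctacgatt
Lmna: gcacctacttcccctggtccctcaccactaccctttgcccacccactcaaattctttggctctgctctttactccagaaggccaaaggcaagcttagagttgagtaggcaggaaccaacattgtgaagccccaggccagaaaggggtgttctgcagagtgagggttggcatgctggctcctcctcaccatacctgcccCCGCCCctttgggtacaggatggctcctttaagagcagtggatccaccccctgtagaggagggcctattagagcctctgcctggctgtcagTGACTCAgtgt

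These motifs were searched on both strands: the E-box CANNTG, the GC box GGGCGG, the AP-1 site TGANTCA, the CCAAT box, the TATA box TATAAA and the CArG box, which serum response factor binds in many smooth muscle genes. The Nes window holds 2 GC boxes and none of the other motifs. The Vim window holds 2 CCAAT boxes and 1 TATA box. The Lmna window holds 1 GC box and, just past its start, 1 AP-1 site. No matches overlapped in these windows. Of 32851 promoters of this length, 35.7% hold a GC box, 37.4% a CCAAT box, 13.6% a TATA box, 7.81% an AP-1 site, 72.3% an E-box and 1.63% a CArG box. Of these motifs, Nes and the Lmna start shown share the GC box. The second Lmna start holds 0 GC boxes and 1 CCAAT box, which Vim also has, so what the genes share depends on the start. Both Lmna windows lie inside the span of the gene (chr3:88481148-88509932), so neither covers its outer 5' end.

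Nes lies on chromosome 3 (chr3:87971093-87980451, plus strand). Both of its probes, annotated to the same transcript, read higher in KO arteries than in WT arteries, on the ligated and on the untouched side, with no overlap between the 3 KO and the 3 WT arrays. Probe ILMN_2703267 gave intensities of 163, 232 and 192 in KO LCA, 187, 289 and 301 in KO RCA, 102, 89.7 and 99.5 in WT LCA, and 109, 111 and 110 in WT RCA. Every KO array lay above every WT array, and the WT RCA arrays lay close together. The WT LCA arrays sat around the background guide, with 1 of 3 above it.

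On the arrays of the ligated artery, which the choice of Nes did not use, the mean of this probe was 195 ± 34.8 in KO LCA and 97.0 ± 6.44 in WT LCA (SD, n = 3 each). The log2 difference was 1.00 ± 0.18 (SE), a 2-fold difference with a 95% interval of 0.60 to 1.39 on the log2 scale. It did not pass the threshold: the limma test gave an adjusted p of 0.121 (Benjamini-Hochberg over 25796 probes). In this comparison 0.0426% of all probes passed an adjusted p of 0.05 in either direction and 0.0388% passed as higher in KO, and none of the 14 member probes did. The adjusted p from limma lay between 0.0512 and 0.39 over 23 other settings, and the log2 difference between 0.87 and 1.76. Only the means and their difference are free of the RCA arrays by which Nes was chosen. The SE, the interval and the adjusted p of 0.121 come from a fit that pooled the spread of all groups, RCA included. With KO LCA and WT LCA fitted alone, the limma adjusted p was 0.273.

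In the untouched artery, given as a description, the same probe averaged 259 ± 62.4 in KO RCA and 110 ± 0.813 in WT RCA (SD, n = 3 each), a log2 difference of 1.21 ± 0.18 (SE). The 4 group means thus ran from KO RCA through KO LCA and WT RCA to WT LCA. The KO RCA and KO LCA arrays overlapped (log2 difference, LCA minus RCA, -0.39 ± 0.18 SE). WT LCA arrays lay below WT RCA arrays without overlap, but by -0.18 ± 0.18 on the log2 scale. The difference between the ligation effects of KO and WT was -0.21 ± 0.25 (SE), a description too.

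Probe ILMN_2904590 of Nes repeated the order of the genotypes at smaller contrast. It read 132, 117 and 132 in KO LCA, against 102, 93.7 and 88.5 in WT LCA, a log2 difference of 0.42 ± 0.12 (SE; limma adjusted p = 0.45). That SE and p draw on the RCA arrays too, and with KO LCA and WT LCA fitted alone the limma adjusted p was 0.442. In KO RCA this probe read 105, 114 and 147, and in WT RCA 95.2, 93.8 and 101. WT RCA was at background for this probe, so the KO RCA mean was at least 1.2-fold higher, taken against the guide. This too is a description, and it leans on KO RCA replicate 3. The log2 difference from the WT RCA readings was 0.32 with that array and 0.18 without it. Over the 12 arrays the log2 values of the 2 Nes probes had a correlation of 0.804, and of 0.371 once each group's mean was removed.

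Other probes separated the genotypes on both sides as well. Of 25796 probes, 7.61% were higher in KO LCA than in WT LCA without overlap, and 6.25% higher in KO RCA than in WT RCA. The number higher on both sides was 311, or 1.21%: 15.8% of the probes higher in the LCA and 19.3% of those higher in the RCA. Both Nes probes are among the 311. Because Nes was chosen by its RCA values, its separation in the RCA is no finding. The share to set beside its LCA separation is the 19.3%, not the 1.21%.

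**Figure D1:**
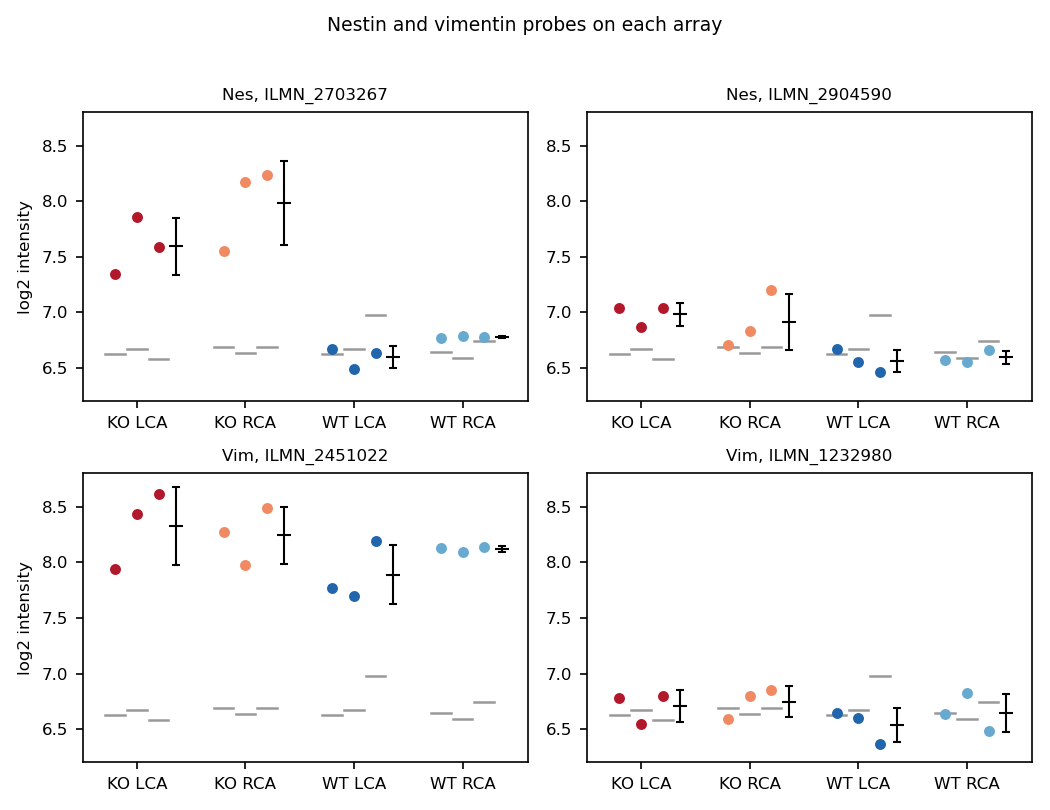
Log2 intensity of the Nes and Vim probes on each of the 12 arrays, with KO LCA, KO RCA, WT LCA and WT RCA from left to right. Points are arrays, black bars the mean ± SD of the log2 values of 3 arrays and grey ticks the log2 background guide of each array. In linear intensity the KO arrays of Nes probe ILMN_2703267 run from 163 to 301 and the WT arrays from 89.7 to 111.

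Some markers of smooth muscle, Acta2 above all, were higher in KO arteries too. The summed intensity of the 8 smooth muscle genes was 1790 to 2300 in KO LCA, against 770 to 1536 in WT LCA, and 1142 to 1961 in KO RCA, against 793 to 1035 in WT RCA. Acta2, smooth muscle actin, read 1050, 1050 and 895 in KO LCA and 334, 1210 and 704 in KO RCA, against 514, 257 and 89.9 in WT LCA and 170, 277 and 117 in WT RCA. Without Acta2 the sums overlapped, at 739 to 1404 in KO LCA, against 680 to 1023 in WT LCA, and at 754 to 808 in KO RCA, against 676 to 758 in WT RCA. Of the 8 genes, Acta2, Tagln and Myocd were higher in KO LCA than in WT LCA without overlap, Acta2, Tagln and Cnn1 in KO RCA than in WT RCA, and the other 5 overlapped on each side (7.61% of all probes were higher without overlap in the LCA, 6.25% in the RCA). The summed intensity of the 9 endothelial genes overlapped between genotypes. It was 2656 to 5174 in KO LCA, against 2801 to 3473 in WT LCA. This overlap in the LCA turned on 1 array. Pecam1 read 3590 on KO LCA replicate 1, against 849 and 937 on the other KO LCA arrays. The lowest and the median KO LCA sums, 2656 and 2675, lay below every WT LCA sum. In the RCA the endothelial sum was 3196 to 4253 in KO, against 3100 to 4148 in WT. Of the 9, 3 (Tie1, Egfl7 and Emcn) were lower without overlap in KO LCA, against 5.35% of all probes, and 6 overlapped. In KO RCA 1 (Tie1) was lower without overlap, against 5.34% of all probes, and 8 overlapped. The part of smooth muscle in the Nes difference was not tested, and in bulk RNA fewer cells of a type and less RNA per cell cannot be told apart.

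The 5 pericyte genes summed to 476 to 481 in KO LCA, against 476 to 531 in WT LCA, and 470 to 499 in KO RCA, against 461 to 485 in WT RCA. Of these, Kcnj8, Abcc9 and Pdgfrb were at background in all 4 groups, Rgs5 exceeded the guide on 1 array, and Cspg4 exceeded it on 11 of the 12 arrays, at 105 to 127. Of 10 Schwann cell and nerve genes 7 were measured, at 661 to 709 in KO LCA, against 650 to 682 in WT LCA, and 648 to 668 in KO RCA, against 651 to 701 in WT RCA. Sox10 and S100b were at background in all 4 groups, whereas 2 of the 7 exceeded the guide on all 3 arrays in KO LCA and 0 did so in the other groups. Egr2 was among these 2, at 121, 126 and 104 in KO LCA, against 89.4, 112 and 99.7 in WT LCA, which overlap. In the LCA 1 of the 7 (Mbp) was higher in KO without overlap, against 7.61% of all probes, with both groups at background. In the RCA 1 (Sox10) was lower in KO without overlap, against 5.34% of all probes. The other 6 overlapped on each side. The summed intensity of the 7 fibroblast genes was higher in KO LCA (1105 to 1519) than in WT LCA (776 to 931), and overlapped in the RCA (712 to 977 in KO, 759 to 845 in WT). In the LCA 4 of the 7 (Dpt, Col1a1, Col1a2 and Fbln1) were higher in KO without overlap, against 7.61% of all probes. The other 3 overlapped. In the RCA 0 were higher without overlap, against 6.25% of all probes, and 2 (Pdgfra and Col1a2) were lower, against 5.34%. The part of these cells in the results was not tested.

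The 4 erythrocyte genes measured summed to 2071 to 5387 in KO RCA, against 694 to 1894 in WT RCA, without overlap, and to 1377 to 2847 in KO LCA, against 1372 to 1988 in WT LCA. The 6 adipocyte genes measured summed to 585 to 643 in KO LCA, against 559 to 565 in WT LCA, without overlap. In the RCA they summed to 577 to 583 in KO, against 540 to 570 in WT, also without overlap. Plin1, Lep and Retn were at background in all 4 groups. Plin4 exceeded the guide on 9 arrays, and Adipoq and Cidec on 2 each. Adipoq and Plin4 were higher in KO without overlap on both sides, and Retn in the RCA. Of all probes, 7.61% were higher without overlap in the LCA and 6.25% in the RCA. The part of erythrocytes and adipocytes in the Nes difference was not tested. Of 5 genes of cycling cells 3 were measured, and they summed to 304 to 315 in KO LCA, against 316 to 323 in WT LCA, without overlap. In the RCA they summed to 333 to 342 in KO, against 305 to 354 in WT. Top2a and Birc5 were at background in all 4 groups, so only Cdk1 was measured above it. Taken singly, the 3 genes overlapped between genotypes on both sides.

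Vim lies on chromosome 2 (chr2:13574311-13582826, plus strand). Its probe ILMN_2451022 exceeded the guide on all 12 arrays, and none of its differences passed the test. It read 245, 346 and 391 in KO LCA and 309, 251 and 358 in KO RCA, against 219, 208 and 293 in WT LCA and 280, 273 and 282 in WT RCA. The KO and WT arrays overlapped on both sides. The log2 difference between KO LCA and WT LCA was 0.44 ± 0.19 (SE), with a 95% interval of 0.01 to 0.87 (limma adjusted p = 0.77). In the RCA, KO minus WT was 0.12 ± 0.19 (SE), with an interval of -0.31 to 0.55 and a limma adjusted p of 1. Leaving out KO RCA replicate 2 gave 0.26, and leaving out replicate 3 of that group gave 0.002.

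The LCA and RCA arrays of Vim overlapped in both genotypes. LCA minus RCA was 0.09 ± 0.19 (SE) in KO (limma adjusted p = 0.966) and -0.23 ± 0.19 in WT (limma adjusted p = 0.727), and the 2 effects differed by 0.32 ± 0.27 (limma adjusted p = 0.919). The second Vim probe, ILMN_1232980, annotated to a cDNA clone, read 82.4 to 116 and exceeded the guide on 6 of the 12 arrays, in no group on all 3. No difference is given for it.

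Desmin, the muscle filament protein, was hardly measured. Des lies on chromosome 1 (chr1:75360292-75368579, plus strand), and its probe ILMN_2836982 read 85.0 to 100 and exceeded the guide on 1 of the 12 arrays. It gave 93.3, 85.0 and 90.3 in KO LCA, 92.3, 90.3 and 94.9 in KO RCA, 85.5, 86.4 and 92.1 in WT LCA, and 100, 94.2 and 95.8 in WT RCA. KO LCA, KO RCA and WT LCA were at background, and the WT LCA arrays lay below the WT RCA arrays without overlap, which is the pattern for which the gene was chosen. No fold is given for values this close to the guide. Of 9 skeletal muscle genes measured, 8 were at background in KO LCA, 9 in KO RCA, 7 in WT LCA and 9 in WT RCA, and Myh4 read 162 on WT LCA replicate 3.

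Synemin, which links desmin and vimentin filaments to adhesion sites, had 4 probes on chromosome 7 (chr7:67730161-67759742, minus strand). ILMN_2636266 exceeded the guide on 9 arrays. It read 99.3, 115 and 98.3 in KO LCA and 101, 101 and 128 in KO RCA, against 112, 99.8 and 100 in WT LCA and 117, 102 and 114 in WT RCA. The groups overlapped throughout. KO minus WT in the LCA was 0.00 ± 0.11 on the log2 scale (SE), with an interval of -0.24 to 0.24, and in the RCA -0.02 ± 0.11, with an interval of -0.25 to 0.22. LCA minus RCA was -0.08 ± 0.11 in KO and -0.09 ± 0.11 in WT. The other Synm probes lay at or near background: ILMN_1214880 exceeded the guide on 6 arrays, ILMN_1246310 on 2 and ILMN_3053693 on 0. Of these, ILMN_3053693 was lower in KO LCA (85.2 to 89.5) than in WT LCA (90.5 to 95) without overlap, with both groups at background. ILMN_1214880 was lower in KO RCA (89.5 to 96.9) than in WT RCA (100 to 111) without overlap, with KO RCA at background.

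**Figure D2:**
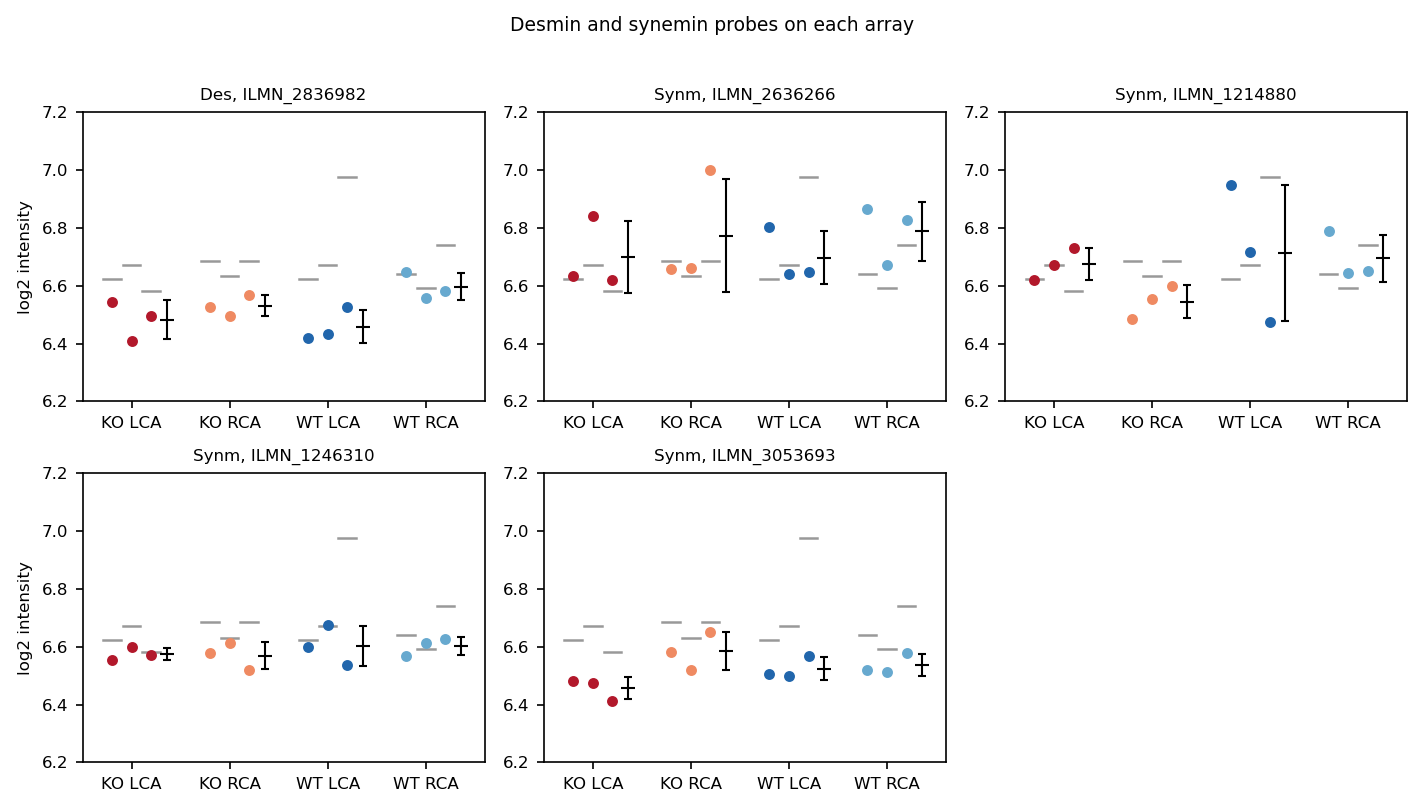
Log2 intensity of the Des probe and the Synm probes on each array, grouped as KO LCA, KO RCA, WT LCA and WT RCA. Points are arrays, black bars the mean ± SD of the log2 values of 3 arrays and grey ticks the log2 background guide. The Des values, 85.0 to 100 in linear intensity, sit at or under the guide on 11 of the 12 arrays.

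Lmna lies on chromosome 3 (chr3:88481148-88509932, minus strand). In KO LCA, 4 of its 5 kept probes were higher than in WT LCA without overlap, and in WT the same number were lower in the LCA than in the RCA without overlap. Of all probes, 7.61% were higher without overlap in the first comparison and 6.54% lower in the second. WT LCA is the group that both comparisons share, and it held the lowest of the 4 group means for each kept Lmna probe. No Lmna probe passed the adjusted threshold in any of the 5 comparisons. The probes of a gene read the same RNA, so they do not count as separate observations.

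Probe ILMN_2662387 had the smallest p of the Lmna probes in KO minus WT in the LCA. It read 119, 131 and 130 in KO LCA, against 105, 105 and 97.3 in WT LCA, and 119, 115 and 114 in KO RCA, against 121, 116 and 135 in WT RCA. KO LCA minus WT LCA was 0.30 ± 0.07 on the log2 scale (SE; limma adjusted p = 0.271). In the RCA, KO minus WT was -0.09 ± 0.07 (limma adjusted p = 1), with arrays that overlapped.

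For the same probe, LCA minus RCA was 0.12 ± 0.07 (SE) in KO (limma adjusted p = 0.712) and -0.28 ± 0.07 in WT (limma adjusted p = 0.551). The difference between these ligation effects was 0.40 ± 0.10 (SE; limma adjusted p = 0.919). In the interaction 0% of all 25796 probes passed an adjusted p of 0.05, and 3.62% had an unadjusted p under 0.05.

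Probe ILMN_1254405 followed the same order in the LCA. It read 123, 137 and 151 in KO LCA, against 113, 106 and 90.3 in WT LCA, a log2 difference of 0.41 ± 0.14 (SE; limma adjusted p = 0.582). In the RCA it read 124, 129 and 174 in KO and 138, 125 and 126 in WT, with overlap. LCA minus RCA in WT was -0.33 ± 0.14 (SE; limma adjusted p = 0.699).

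Probe ILMN_3121891 is annotated to another Lmna transcript than the other 4 kept probes. It read 133, 157 and 149 in KO LCA, against 105, 124 and 95.2 in WT LCA, a log2 difference of 0.44 ± 0.14 (SE; limma adjusted p = 0.531). In the RCA it read 128, 113 and 160 in KO and 130, 123 and 112 in WT. For this probe the WT LCA and WT RCA arrays overlapped (log2 difference -0.18 ± 0.14 SE). Whether a probe reads 1 transcript alone was not checked.

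Probe ILMN_2597710 read 127, 119 and 148 in KO LCA and 122, 105 and 85.0 in WT LCA, which overlap, at a log2 difference of 0.35 ± 0.13 (SE; limma adjusted p = 0.677). In the RCA its KO arrays at 130, 131 and 158 lay above the WT arrays at 128, 123 and 125 without overlap, by 0.15 ± 0.13 (limma adjusted p = 1), and by 0.06 without KO RCA replicate 3. It was the only kept Lmna probe to separate the genotypes in the RCA, where 6.25% of all probes were higher without overlap.

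Probe ILMN_1255510 turned on 1 array. It read 427 on KO RCA replicate 1 and 150 and 158 on the other KO RCA arrays, 126, 148 and 163 in KO LCA, 120, 125 and 95 in WT LCA, and 137, 145 and 154 in WT RCA. The other kept Lmna probes read 119 to 130 on KO RCA replicate 1, within the range of the other arrays. KO minus WT in the RCA was 0.57 ± 0.34 on the log2 scale (SE; limma adjusted p = 1), and 0.08 without KO RCA replicate 1. LCA minus RCA in KO was -0.58 ± 0.34 with that array and -0.09 without it, and the difference between the ligation effects, -0.21 ± 0.47, became 0.28 without KO RCA replicate 1. KO LCA minus WT LCA, whose arrays did not overlap, was 0.37 ± 0.34 (limma adjusted p = 0.813). The remaining probe, ILMN_1221646, did not pass the filter and read at or near background.

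The array WT LCA replicate 3, which had the fewest genes above the guide, had the lowest of the WT LCA values for each kept Lmna probe. Without it, the KO minus WT differences in the LCA were 0.24 for ILMN_1255510, 0.32 for ILMN_1254405, 0.36 for ILMN_3121891, 0.22 for ILMN_2597710 and 0.27 for ILMN_2662387. All remained above 0, and those of ILMN_2597710 and ILMN_1255510 were smaller by over 1.5 times. The Nes difference on probe ILMN_2703267 was 1.02 without this array.

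**Figure D3:**
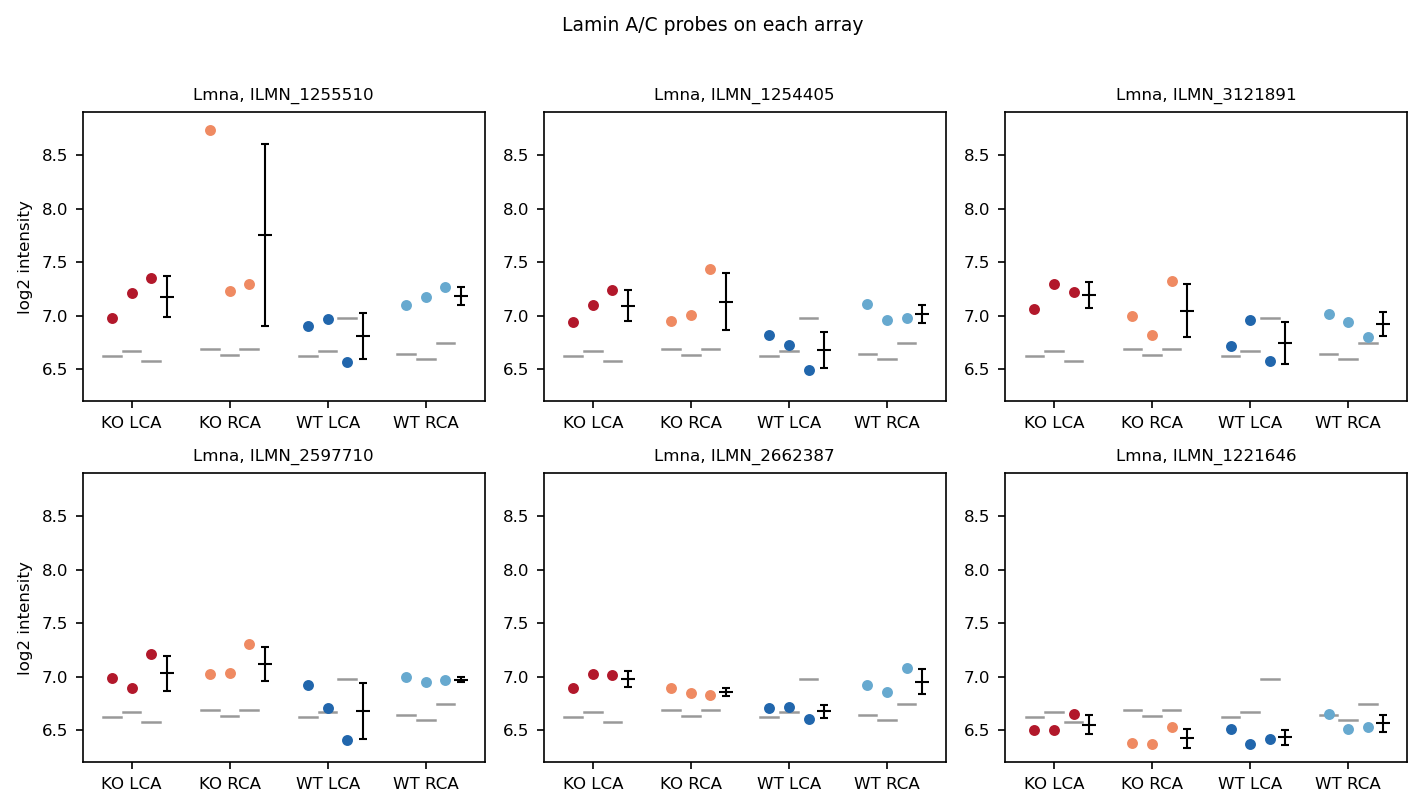
Log2 intensity of the Lmna probes on each array, grouped as KO LCA, KO RCA, WT LCA and WT RCA. Points are arrays, black bars the mean ± SD of the log2 values of 3 arrays and grey ticks the log2 background guide. Probe ILMN_1255510 reads 427 in linear intensity on KO RCA replicate 1, and WT LCA holds the lowest mean of each kept probe.

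Across the members, 6 of 14 kept probes were higher in KO LCA than in WT LCA without overlap (background 7.61%) and 1 was lower (5.35%). In the RCA, 3 were higher in KO (6.25%) and 1 lower (5.34%). For ligation in KO, 1 was higher in the LCA (8.9%) and 1 lower (11.2%), and in WT 0 were higher (4.4%) and 6 lower (6.54%). The RCA counts for Nes and the WT ligation count for Des come from the patterns that chose these genes, the Nes and Lmna probes repeat their gene, and the comparisons share groups, so nothing is read from these counts about the gene set. No member probe passed an adjusted p of 0.05 in KO minus WT in the RCA, in LCA minus RCA in KO or in LCA minus RCA in WT, where 0% of all probes did by limma. The unadjusted p was under 0.05 for 4.32% of all probes in the first, 7.54% in the second and 6.84% in the third.

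**Figure D4:**
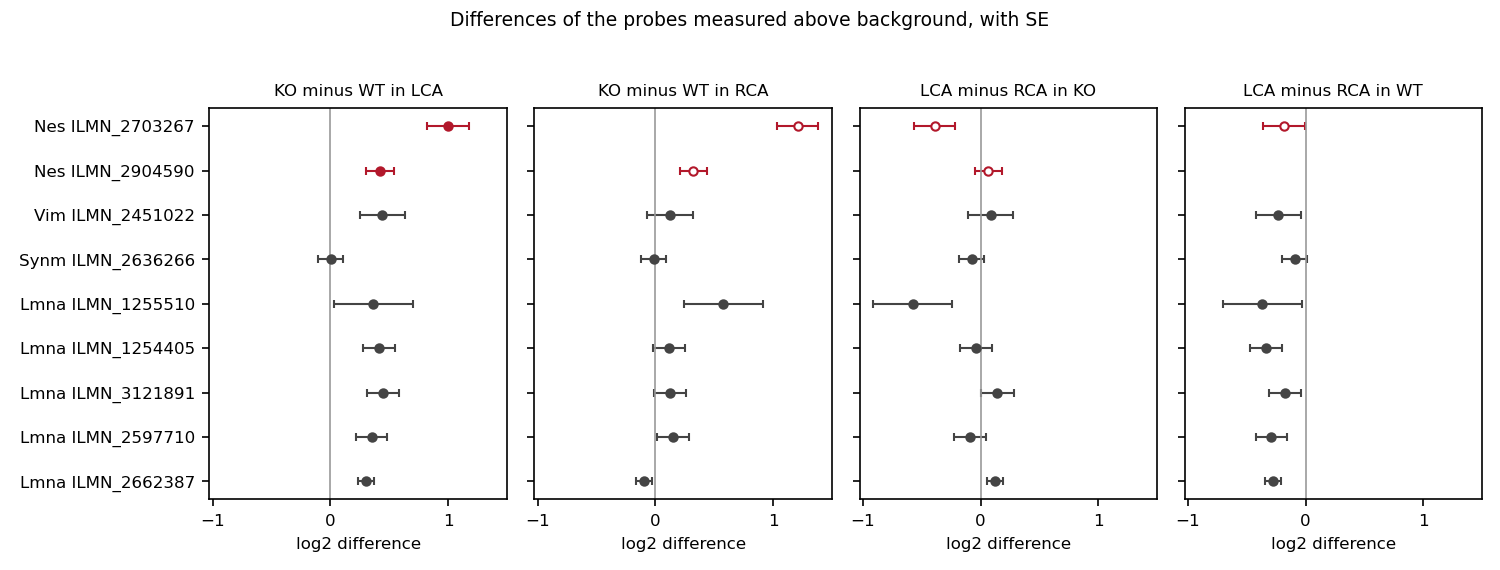
Log2 differences (x axis, 0 means none) with their SE from the limma fit, in 4 panels for KO minus WT in the LCA and RCA and LCA minus RCA in KO and WT, for the member probes above the background guide on all 3 arrays of a compared group. Nes is in red, with open symbols where the difference is a description; Nes probe ILMN_2703267 lies at 1.00 in the LCA and 1.21 in the RCA and the Lmna probes at 0.30 to 0.44 in the LCA, and for ILMN_2904590 in the RCA, WT was at background.

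Other intermediate filament genes, the keratins, neurofilaments, B-type lamins, Gfap and the rest of a list of 17, were mostly near background. A probe existed for 15 of the 17, and 17 of 23 probes were kept. None passed in any of the 5 comparisons by limma, 0 were under an unadjusted p of 0.05 in KO minus WT on either side, and the median log2 difference was -0.01 in the LCA (all probes 0.00) and -0.04 in the RCA (all probes 0.00). Krt8, Gfap and Krt18, which had the smallest p in the LCA, were at background in KO LCA, and exceeded the guide on 2, 1 and 2 of the 3 WT LCA arrays, so no fold is given.

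The B-type lamins, the partners of lamin A/C in the nuclear meshwork, had single high arrays. Lmnb1 read 106, 101 and 256 in KO RCA, against 99.9, 92.6 and 95.2 in WT RCA, a log2 difference of 0.54 ± 0.29 (SE; limma adjusted p = 1). Lmnb2 probe ILMN_2534929 read 96.6, 120 and 244 in WT LCA, against 93.7, 98.1 and 110 in WT RCA. Its probe ILMN_2669404 read 139, 139 and 446 in KO LCA, 99.7, 149 and 149 in KO RCA, 125, 118 and 142 in WT LCA, and 119, 118 and 426 in WT RCA. In each case 1 array of a group made the group mean. Of the other named genes, Krt14 was at background in all groups, Ina exceeded the guide on 4 arrays and Sync on 2, so no difference is given for them.

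Of 26 genes for filament linkers and nuclear envelope proteins, 23 had a probe, and 73 of 86 probes were kept. None passed in any of the 5 comparisons by limma. At an unadjusted p under 0.05, 5 were higher and 1 lower in KO LCA than in WT LCA, against 6.46% of all probes; 1 was higher and 3 lower in the RCA, against 4.32%. For ligation 3 were higher and 2 lower in KO, against 7.54% of all probes, and 1 higher and 6 lower in WT, against 6.84%. The median log2 difference between KO LCA and WT LCA was 0.03 over the list, against 0.00 over all probes.

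Plectin (Plec), the linker that ties intermediate filaments to each other and to adhesion sites, held the 3 smallest p of this list for ligation in WT. Its probe ILMN_3035667 read 102, 87.8 and 86.9 in WT LCA, against 132, 125 and 159 in WT RCA, a log2 difference of -0.58 ± 0.12 (SE; limma adjusted p = 0.363). In KO it read 87.2, 84.1 and 102 in the LCA, against 135, 112 and 113 in the RCA, a difference of -0.40 ± 0.12 (limma adjusted p = 0.627). Neither pair of groups overlapped. Probe ILMN_3109360 read 136, 99.8 and 92.3 in WT LCA, against 158, 176 and 168 in WT RCA (-0.63 ± 0.15 SE; limma adjusted p = 0.545), and 108, 94.7 and 121 in KO LCA, against 125, 147 and 114 in KO RCA, which overlap. For ILMN_1256786, WT LCA was at background and at least 1.09-fold lower than WT RCA.

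The Plec probes did not all show this. Of 13 kept, 9 had a WT ligation difference below 0, 3 of them without overlap (6.54% of all probes). The 13 ran from -0.63 to 0.06. The 4 that exceeded the guide on at least 6 arrays were all below 0, but ILMN_3062404 only by -0.014, and the arrays of ILMN_2710419 overlapped. The share of all probes below 0 was not taken, and probes of 1 gene are not separate observations. In KO, 6 of the 13 were below 0, including 3 of those 4. Without overlap, 2 were higher in KO LCA than in KO RCA (8.9% of all probes) and 1 lower (11.2%).

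Among the other linkers and envelope genes named by their p, Tmpo, a lamin-binding protein of the inner nuclear membrane, read 150, 152 and 131 in KO LCA, against 117, 121 and 89.3 in WT LCA, a log2 difference of 0.41 ± 0.13 (SE; limma adjusted p = 0.527). Ankrd1, a mechanically responsive muscle protein, read 111, 148 and 106 in KO LCA and was at background in WT LCA, so that KO LCA was at least 1.11-fold higher (limma adjusted p = 0.455). Syne2, a nesprin of the outer nuclear membrane, was at background in KO LCA and exceeded the guide on 2 of the 3 WT LCA arrays. Sun1, which binds lamin A inside the nuclear envelope, read 120, 120 and 121 in KO RCA, against 106, 109 and 102 in WT RCA (0.19 ± 0.07 SE; limma adjusted p = 1) and 103, 103 and 105 in KO LCA (LCA minus RCA -0.22 ± 0.07; limma adjusted p = 0.627). Ppl, periplakin, read 92.5, 100 and 92.4 in KO RCA, against 110, 115 and 108 in WT RCA (-0.22 ± 0.06 SE; limma adjusted p = 0.912).

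The genes whose log2 values were most like those of Nes probe ILMN_2703267 over the 12 arrays were Tinagl1, a matrix protein (Pearson r = 0.944), Gtpbp4, a GTP-binding protein of ribosome assembly (0.913), Rnf11, a RING finger protein (0.909), Cd44, the hyaluronan receptor (0.905), and Rassf1, a Ras-association protein (0.895). They are the 5 highest of the genes compared, and a correlation over 4 groups holds the group differences: with each group's mean removed the values lay between 0.458 and 0.808. Tinagl1 averaged 310 ± 29.6 in KO LCA and 413 ± 67.1 in KO RCA, against 167 ± 26.1 in WT LCA and 205 ± 22.8 in WT RCA (SD, n = 3 each). Cd44 averaged 144 ± 25 in KO LCA and 186 ± 70.2 in KO RCA, against 101 ± 5.36 in WT LCA and 103 ± 4.18 in WT RCA (SD, n = 3 each).

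For Vim probe ILMN_2451022 the nearest genes were Tmprss5 (r = 0.878), whose values stay near background, Ahnak, a giant scaffold protein (0.862), Tmem127 (0.846), Prrc2c (0.818) and Psmc5, a proteasome subunit (0.812). Those nearest Synm probe ILMN_2636266, Ahcy, Olfr33, Adcyap1, Dph7 and Kcnc1, had r of 0.868 to 0.923 with group means between 87.2 and 97.5, which is near background. The genes nearest Lmna probe ILMN_1255510 were Vps35 (0.982), Abcf1, Ago2, Pbx2 and Bcl2l2, and they share the high array. On KO RCA replicate 1 Vps35 read 406, Abcf1 365, Ago2 391, Pbx2 119 and Bcl2l2 296, above their other arrays, whose highest values were 153, 179, 141, 95.5 and 130. Without that array the correlations were 0.762 to 0.915.

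**Figure D5:**
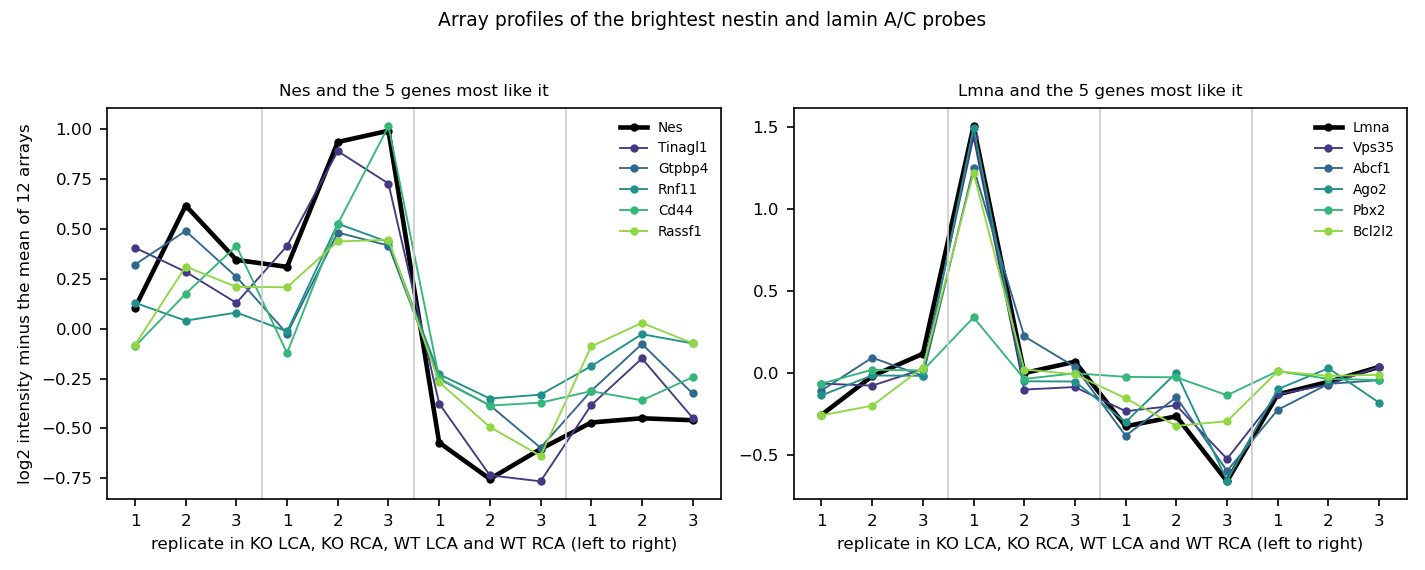
Log2 intensity minus its mean over the 12 arrays, by array in the order KO LCA, KO RCA, WT LCA and WT RCA, for Nes probe ILMN_2703267 with the 5 genes most like it (left) and Lmna probe ILMN_1255510 with its 5 (right); black lines are the members and coloured lines the other genes. On the left the WT arrays of Nes lie under its KO arrays, and on the right the Lmna line peaks on KO RCA replicate 1, where Vps35 read 406.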

How the data were processed

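The authors deposited linear probe intensity values, already quantile-normalised between arrays as the identical value distributions show; the normalization tool is not given in the sources used here. Per the labels' protocols, RNA was purified with a Qiagen miRNeasy kit and labelled as biotinylated cRNA with Ambion's MessageAmp kit. Of 45281 probes, 34885 had 1 gene symbol in the platform annotation, 18 had several and 10378 had none. Kept for tests were 25796 probes with 1 symbol, at or above the array median on at least 3 arrays. Log2 values (floor 1) of all 12 arrays entered 1 limma fit (3.58.1, R 4.3.3) of 4 group means with eBayes, two-sided, adjusted by Benjamini-Hochberg over all kept probes at 0.05, and tested on simulated data. Intensities ran from 72.4 to 10230 with a median of 93.6, so a floor compresses fold changes, and the number of arrays limits precision. A difference is given where a probe exceeds the background guide on all 3 arrays of a compared group, and a bound is taken against the guide. The bound concerns group means and has no standard error, so the spread between arrays can take a difference below it.

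The members and lists were chosen with earlier results of these data known. Named genes were all probes of the 5 members and the 3 list probes with the smallest p per comparison. The 5 genes with the highest correlation with a member's probe of highest mean were named too. Acta2, the sums without it, Pecam1, Egr2, Myh4 and the Plec counts were added after their values were seen. Lists of skeletal and cardiac muscle, adipocyte, macrophage, erythrocyte and cycling cells were also summed; sums not given in the results are under the closing observations. Alternatives were a replicate block, array weights, trended and robust eBayes, other filters, 1 probe per gene, 2 groups alone, other scaling, pseudocounts and leaving out each array. Same-numbered LCA and RCA arrays had correlations of -0.015 to 0.0814 in their deviations from group means, none over 0.1. In WT they were 0.0407 to 0.0814, above those of differently numbered arrays (-0.0541 to 0.00885). In KO they were -0.015 to 0.0396, within those of differently numbered arrays (-0.0561 to 0.0598). These values do not settle whether the numbers pair samples, and the main fit did not use them as pairs. No slide or chip position was available to test as a batch.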

Additional observations from a re-analysis of the deposited data

How the results depend on the processing

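No tested difference of a Nes, Vim, Synm or Lmna probe passed the adjusted threshold in the limma fit or under any alternative run. The number of all 25796 probes that passed did depend on the setting. For KO minus WT in the LCA it was 11, of which 10 were higher in KO. It was 0 with the replicate block, with trended and robust eBayes and with the 2 groups fitted alone, 4 with array weights, 1 with 1 probe per gene, 18 with the stricter filter and 21 with median centring, of which 16 were higher. Repeating the quantile normalization gave 12, of which 9 were higher. Leaving out 1 array gave 0 to 25, with 0 without KO LCA replicate 1 or 3 and 25 without WT LCA replicate 1, of which 13 were higher in KO. Without WT LCA replicate 2, 5 of 12 were higher, and without WT LCA replicate 3, 5 of 17, so the balance of directions rests on the WT LCA arrays. In KO minus WT in the RCA leaving out 1 array gave 0 to 5, in LCA minus RCA in KO 0 to 5, in LCA minus RCA in WT 0 to 10 (1 with array weights), and in the interaction 0 to 3. Without any array left out the counts in these 4 were 0 by limma.

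Signs turned mainly where a difference lay near 0. Synm probe ILMN_2636266 in KO minus WT in the LCA, 0.001 on the log2 scale, was -0.022 with array weights, -0.004 with median centring, -0.007 with quantile normalization repeated and -0.002 with the lowest value subtracted, and ran from -0.071 to 0.054 with 1 array left out. With 1 array left out this probe also ran from -0.128 to 0.043 in KO minus WT in the RCA, from -0.147 to 0.038 in LCA minus RCA in KO, and from -0.056 to 0.129 in the interaction. In KO minus WT in the RCA, Lmna ILMN_1254405 ran from -0.037 to 0.209 and ILMN_3121891 from -0.01 to 0.238. In LCA minus RCA in KO, Vim ILMN_2451022 ran from -0.057 to 0.28, Lmna ILMN_1254405 from -0.131 to 0.115 and ILMN_2597710 from -0.18 to 0.002. Vim ILMN_2451022 kept its sign but ran from -0.384 to -0.136 in LCA minus RCA in WT and from 0.173 to 0.511 in the interaction, and the described Nes ILMN_2703267 was -0.609 in LCA minus RCA in KO without KO RCA replicate 1. The interaction of Lmna ILMN_1255510 ran from -0.472 to 0.281. With the lowest value subtracted and 16 added, the described Nes differences of ILMN_2703267 were 1.867 in KO minus WT in the RCA and -0.412 in LCA minus RCA in WT, and that of ILMN_2904590 in the RCA was 0.655. The cause of these changes was not tested. Low signal over background limits Des, 3 of the Synm probes and the second Vim probe.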

Other observations

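Marker sums of cells that the report does not turn on were as follows. The 5 macrophage genes measured summed to 530 to 738 in KO LCA, against 452 to 729 in WT LCA, and to 481 to 558 in KO RCA, against 483 to 494 in WT RCA. Without overlap, Cd163 was higher in KO LCA (7.61% of all probes), and the other 4 overlapped. In the RCA, Adgre1 and Lyz2 were higher in KO without overlap (6.25% of all probes), and the other 3 overlapped. The 9 skeletal muscle genes measured summed to 791 to 807 in KO LCA, against 793 to 908 in WT LCA, and to 792 to 813 in KO RCA, against 776 to 792 in WT RCA. The 4 cardiac muscle genes measured summed to 352 to 359 in KO LCA, against 363 to 396 in WT LCA, without overlap. In the RCA they summed to 366 to 384 in KO, against 362 to 397 in WT. Myh6 and Tnni3 were lower in KO LCA without overlap (5.35% of all probes), and the other 2 overlapped. Actc1 was at background in all 4 groups.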
